A study of Mus musculus with 18 samples.

Results

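The effect of a high-fat against a low-fat diet on liver microRNAs (miRNAs) was read in mice that were also under calorie restriction. The 3 libraries labelled HF+CR were set against the 3 labelled LF+CR, out of 18 libraries in 6 groups of 3. All miRNAs with at least 5 RPM (reads scaled to a common library size) in at least 3 of the 18 libraries were tested, which left out 407 of the 758 listed. HF+CR livers came from mice on the HF diet with CR, and LF+CR livers from mice on the LF diet with CR. The labels use these abbreviations without spelling them out; they are read here as high-fat diet, low-fat diet and calorie restriction, and Ex in the 2 exercised groups as exercise. The animals were of the inbred strain C57BL/6J and wild-type, and their regimens began at 5 weeks of age and their livers were frozen at 62 weeks, so both groups carried the restriction and, by their labels, differed in diet. The other groups, used for the last comparisons, were livers of mice on the same diets with exercise (HF+Ex and LF+Ex) or with no intervention named (HF and LF). The labels name no separate animal for each library, so p-values reflect just how far these samples vary, and part of that variation may be technical. Whole liver was sequenced, and fewer cells of a type and less RNA per cell cannot be told apart in it.

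A mature miRNA is a short RNA cut from a hairpin precursor. It guides a silencing complex to messenger RNAs that pair with its seed, the bases near its 5′ end, so miRNAs with the same seed share many targets. A hairpin can give a miRNA from each of its arms, named 5p and 3p, and neighbouring hairpins are often transcribed together. In liver, hepatocytes are dominated by miR-122-5p, and miRNAs such as miR-33, miR-34a, miR-29 and miR-802 are known for roles in sterol, glucose and matrix metabolism, several of them studied in diet-induced obesity. Here miR-122-5p held 26.4% ± 3.55 of the listed RPM in HF+CR livers and 27.9% ± 2.02 in LF+CR livers (SD, n = 3 each). miR-21a-5p came next, with 8.66% ± 2.58 in HF+CR livers and 7.58% ± 1.42 in LF+CR livers.

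The sequences on which the results turn are shown first, 5′ to 3′ and with the seed (bases 2 to 8) in capitals, from RefSeq's GRCm38.p6 table, which held 288 of the tested miRNAs, 82.1%. The first 4 are miRNAs called in this comparison whose seed no other called miRNA in the table carried.
miR-671-5p: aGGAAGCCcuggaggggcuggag
miR-214-3p: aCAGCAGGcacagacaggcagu
miR-802-3p: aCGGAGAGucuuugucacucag
miR-345-3p: cCUGAACUaggggucuggagac
The miR-29 family is shown because its 3 members share a seed and their log2 fold changes all lay below 0.
miR-29a-3p: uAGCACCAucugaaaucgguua
miR-29b-3p: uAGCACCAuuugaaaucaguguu
miR-29c-3p: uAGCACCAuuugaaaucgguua
The miR-101 sequences are shown because the whole of miR-101c, 19 bases, lies inside miR-101a-3p; miR-101b-3p is their abundant relative.
miR-101a-3p: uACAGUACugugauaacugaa
miR-101b-3p: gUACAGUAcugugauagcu
miR-101c: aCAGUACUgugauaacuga
The last 7 are members of seed families of which several were called higher.
miR-15a-5p: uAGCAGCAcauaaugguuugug
miR-16-5p: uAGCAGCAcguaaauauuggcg
miR-17-5p: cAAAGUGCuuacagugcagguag
miR-20a-5p: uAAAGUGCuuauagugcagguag
let-7b-5p: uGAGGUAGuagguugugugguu
let-7c-5p: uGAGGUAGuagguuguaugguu
let-7d-5p: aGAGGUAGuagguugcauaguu

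HF+CR livers held more of many miRNAs and less of a few abundant ones, as deposited. Of the miRNAs tested, 37 passed the test (10.5%), 32 of them higher in HF+CR livers (9.12% of those tested) and 5 lower (1.42%). The test was limma on log2(RPM + 1) with all 18 libraries in 1 fit, called at a Benjamini-Hochberg adjusted p under 0.05. Without adjustment, 109 had p under 0.05, 92 higher and 17 lower. The values lay above 0 for 276 miRNAs (78.6%), and the median log2 fold change was 0.38. All 3 HF+CR libraries lay above all 3 LF+CR libraries for 84 miRNAs (23.9%) and below them for 13 (3.7%).

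**Figure D1:**
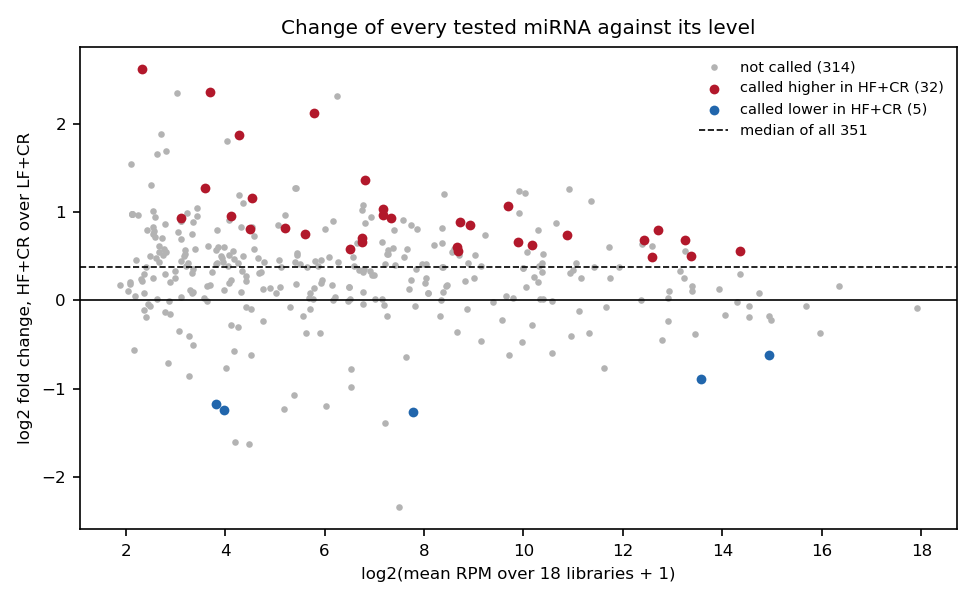
Log2 fold change of HF+CR over LF+CR livers (vertical axis) against the log2 mean RPM over 18 libraries (horizontal axis), 1 point per tested miRNA. Most points lie above 0, the dashed median is at 0.38, and the 5 called lower (blue) include 2 abundant miRNAs, miR-29c-3p and miR-101a-3p.

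RPM is a share of the library, so each value is relative to all others. The largest loss in mean RPM was that of miR-29a-3p, with a mean difference of -18196.8 RPM (62930.0 RPM in HF+CR livers, against 81127 RPM in LF+CR livers). It was followed by miR-122-5p (difference -14834 RPM), miR-29c-3p (-14094 RPM) and miR-101a-3p (-7768 RPM). The largest gains were those of miR-21a-5p (10357 RPM), let-7c-5p (7098 RPM) and miR-22-3p (3952 RPM). Of these 7, miR-29c-3p, miR-101a-3p and let-7c-5p passed the test. Rescaling each library by a median-of-ratios size factor moved the median log2 fold change by -0.32, to 0.06, and changed the balance of calls: 25 miRNAs passed (7.12%), 6 higher (1.71%) and 19 lower (5.41%). The size factors were 0.90 to 1.27 in HF+CR libraries and 0.80 to 0.88 in LF+CR libraries. The 37 and the 25 shared 11 miRNAs, 29.7% of the 37 and 44% of the 25: all 5 called lower, and 6 called higher (miR-376b-3p, miR-1948-5p, miR-1948-3p, miR-214-3p, miR-671-5p and miR-423-3p). Directions for single miRNAs below are as deposited. The 37 called kept theirs after rescaling, though the rest of them no longer passed.

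**Figure D2:**
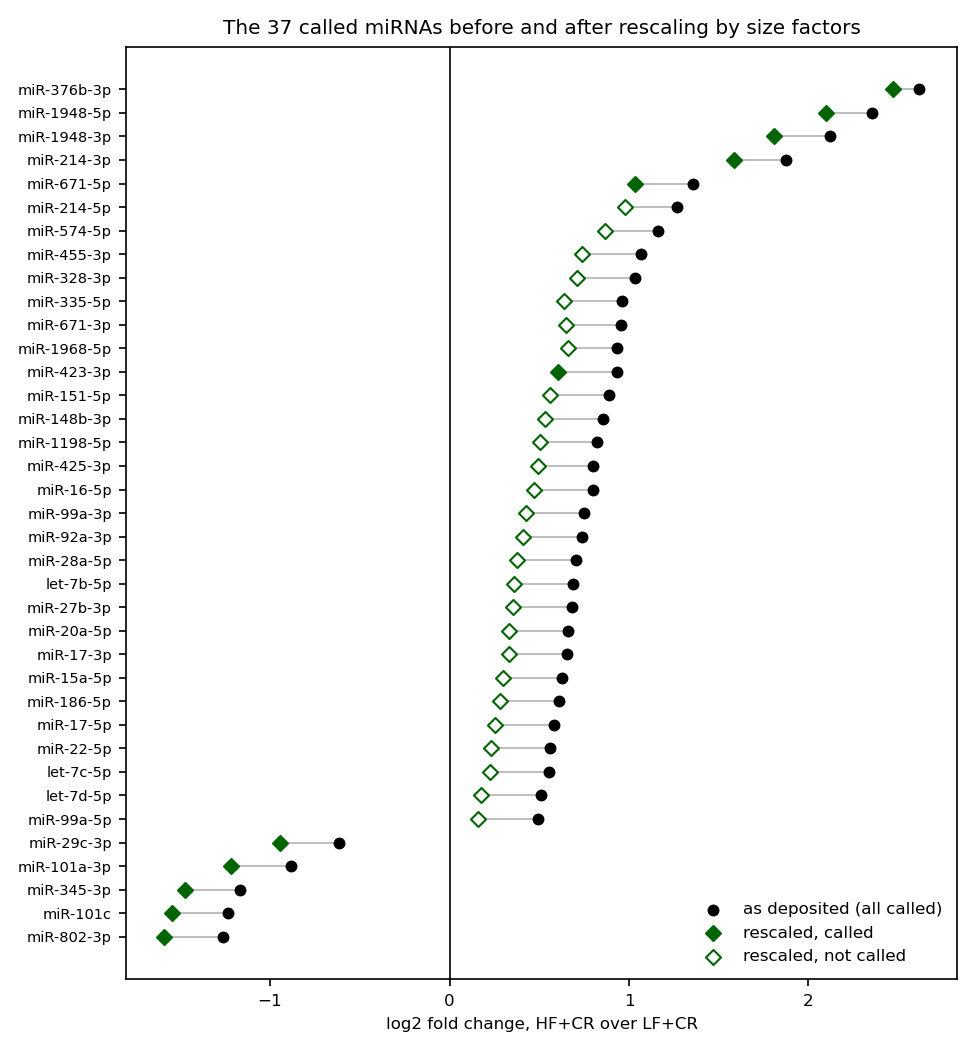
Log2 fold change of HF+CR over LF+CR livers for the 37 called miRNAs, as deposited (black) and after rescaling (green diamonds, filled where called). Every value moved down, by less for the rare miR-376b-3p (2.62 to 2.47) than for the abundant miR-29c-3p (-0.62 to -0.95). The 5 called lower remained called, and of the 32 called higher 6 remained called.

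Of the miRNAs called higher, both arms of miR-1948 and miR-671-5p differed by the widest margins over their error. miR-1948-3p was at 89.7, 86.7 and 58.2 RPM in HF+CR livers, against 13.1, 19.4 and 18.98 RPM in LF+CR livers. Each HF+CR library was above each LF+CR library, a log2 fold change of 2.12 (SE 0.25, adjusted p = 5.59e-05) with limma. Its partner miR-1948-5p was at 31.4, 19.04 and 12.7 RPM in HF+CR livers, against 2.39, 2.52 and 4.55 RPM in LF+CR livers, again with no overlap (log2 fold change 2.36, SE 0.33, adjusted p = 4.02e-04). The HF+CR values of miR-1948-5p stood on 112, 108 and 38 reads, as implied by the RPM steps, and the LF+CR values on 19, 16 and 24 reads. miR-671-5p, known in brain for directing the cutting of the circular RNA Cdr1as, was at 182, 136 and 133 RPM in HF+CR livers, against 53.5, 57.04 and 62.6 RPM in LF+CR livers. The 3 LF+CR values lay close together, far under the lowest HF+CR value, for a log2 fold change of 1.36 (SE 0.15, adjusted p = 5.59e-05). Its precursor lies at chr5:24592114-24592211 (GRCm38.p6, plus strand), inside an exon of Chpf2 and across from an exon of Smarcd3 on the opposite strand (GENCODE M21). The other arm, miR-671-3p, was at 18.5, 13.7 and 25.1 RPM in HF+CR livers, against 6.29, 10.2 and 11.6 RPM in LF+CR livers, also without overlap (log2 fold change 0.95, SE 0.26, adjusted p = 0.0372).

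**Figure D3:**
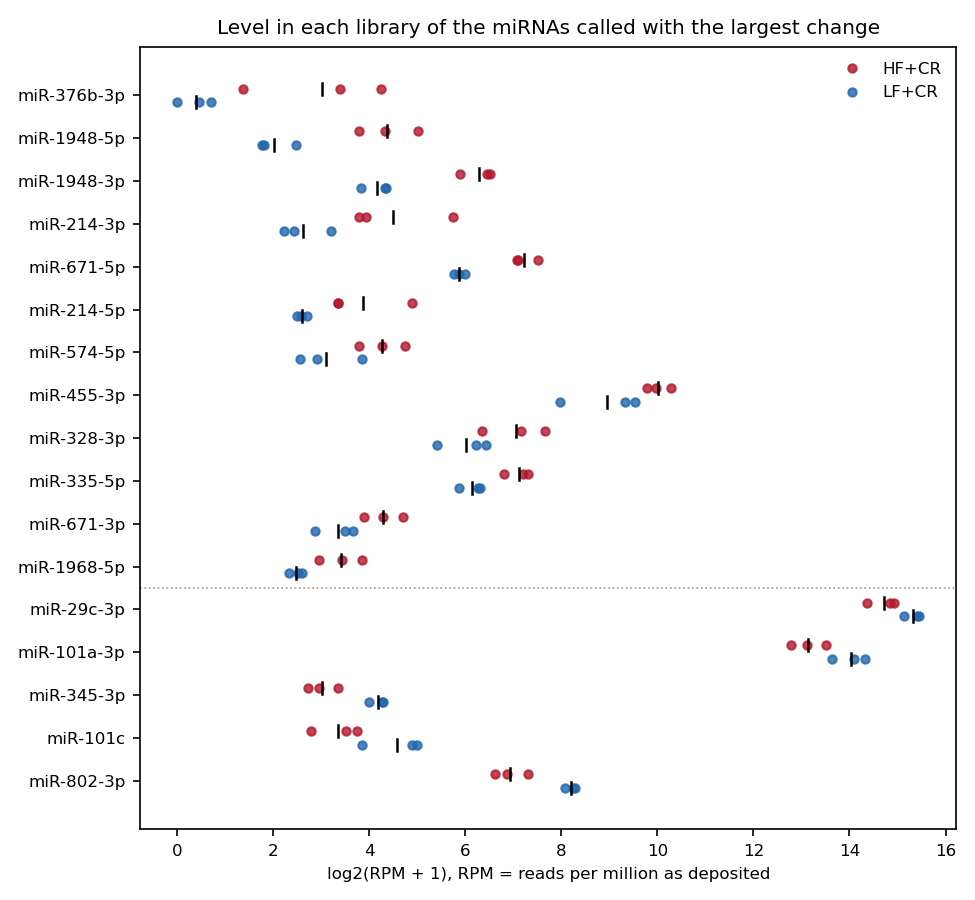
Log2(RPM + 1) of the 12 miRNAs called with the largest increase (above the dotted line) and the 5 called lower (below it), with HF+CR libraries in red above LF+CR libraries in blue and black bars at the means. The groups separate for all but miR-574-5p and miR-328-3p, and HF+CR 3 carries the highest miR-214-3p and miR-376b-3p.

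The largest fold change belonged to a rare miRNA that was tested only because of its level in HF+CR livers. miR-376b-3p comes from the Dlk1-Dio3 domain, an imprinted region of chromosome 12 that encodes a large miRNA cluster, and was at 9.53, 1.59 and 18.05 RPM in HF+CR livers, against 0.378, 0.63 and 0 RPM in LF+CR livers. These values stand on 34, 9 and 54 reads in HF+CR libraries and 3, 4 and 0 reads in LF+CR libraries. Outside HF+CR, it reached 5 RPM only in HF 1 (6.38 RPM) and LF 1 (11.5 RPM), so it would have missed the filter without HF+CR 1 and HF+CR 3, and its call is no independent evidence of a difference. Its log2 fold change of 2.62 (SE 0.72, adjusted p = 0.0372) depends on the pseudocount, and the call was lost in 5 of the 6 fits that left out a library (adjusted p up to 0.121). Of the 47 cluster members on the list, 13 were tested and 1 was called higher, beside 9.12% higher and 1.42% lower of all miRNAs tested. Of the 13, 12 lay above 0 as deposited (78.6% of all miRNAs did), with a median of 0.50 (0.20 after rescaling). The summed cluster stood at 284, 102 and 309 RPM in HF+CR livers and 218, 99.1 and 105 RPM in LF+CR livers, so the groups overlapped. Among its most abundant members, miR-127-3p was at 44.6, 21.7 and 52.1 RPM in HF+CR livers, against 40.7, 20.01 and 22.2 RPM in LF+CR livers (log2 fold change 0.48, SE 0.44, adjusted p = 0.453), and miR-136-5p at 75.9, 23.3 and 39.4 RPM in HF+CR livers, against 57.5, 23.8 and 19.9 RPM in LF+CR livers (log2 fold change 0.44, SE 0.47, adjusted p = 0.521). In LF+CR livers the first library held the most of both.

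Both arms of miR-214 were higher. miR-214 is cut from Dnm3os, a transcript on the strand opposite an intron of Dnm3 that also carries miR-199a, and is typical of mesenchymal cells such as liver stellate cells. miR-214-3p was at 14.3, 12.9 and 52.5 RPM in HF+CR livers, against 3.65, 4.41 and 8.16 RPM in LF+CR livers, and HF+CR 3 stood well above the other HF+CR libraries (log2 fold change 1.87, SE 0.51, adjusted p = 0.0372). miR-214-5p was at 9.25, 9.17 and 28.4 RPM in HF+CR livers, against 4.66, 5.52 and 4.93 RPM in LF+CR livers (log2 fold change 1.27, SE 0.39, adjusted p = 0.0497). Neither arm passed without HF+CR 3, HF+CR 1, LF+CR 1 or LF+CR 2, with adjusted p-values of up to 0.139 for the 3p arm and 0.157 for the 5p arm, and the 5p arm also failed without LF+CR 3. On the stellate, mural and fibroblast list, 8 of 8 members were tested, 2 were higher (the arms of miR-214) and none lower. Of all miRNAs tested, 9.12% were higher and 1.42% lower. The list's median was 0.37, close to that of all miRNAs, and 0.04 after rescaling. The list counts miR-199a-3p and miR-199b-3p separately, though their values were almost equal in each of these libraries (2162 and 2161 RPM in HF+CR 3). Its sum may hold such reads more than once. The list's sum was 9974, 8881 and 18264 RPM in HF+CR livers, against 14917, 10797 and 13338 RPM in LF+CR livers. Its most abundant member, miR-143-3p, was at 5932, 5970.3 and 9457 RPM in HF+CR livers, against 11274, 7837 and 9614 RPM in LF+CR livers; the log2 fold change of -0.45 did not pass as deposited (adjusted p = 0.149) and was -0.78 after rescaling, where it did (adjusted p = 0.0212).

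Of the miR-17 to miR-92a cluster, a set of miRNAs known for promoting cell proliferation, 4 of 9 tested members were higher and none lower, beside 9.12% higher and 1.42% lower among all miRNAs tested. The cluster lies in the host transcript Mir17hg at chr14:115043671-115044506 (GRCm38.p6). All 9 lay above 0 as deposited (78.6% of all miRNAs did), with a median of 0.58, and the 4 called were miR-17-5p, miR-17-3p, miR-20a-5p and miR-92a-3p. After rescaling the median was 0.26 and none of the 4 was called. miR-20a-5p was at 1375, 1439 and 1162 RPM in HF+CR livers, against 953, 753 and 808 RPM in LF+CR livers (log2 fold change 0.66, SE 0.19, adjusted p = 0.0417). miR-17-5p, which differs from miR-20a-5p at 2 of 23 bases, was at 109, 110.3 and 109.6 RPM in HF+CR livers, against 76.9, 68.4 and 73.8 RPM in LF+CR livers (log2 fold change 0.58, SE 0.17, adjusted p = 0.0421). The HF+CR values of miR-17-5p were almost equal to each other and all above the LF+CR values. miR-17-3p was at 137, 142 and 154 RPM in HF+CR livers, against 86.98, 100.2 and 85.97 RPM in LF+CR livers, and miR-92a-3p, which is also encoded in a second cluster on the X chromosome, at 3206, 1766 and 2415 RPM in HF+CR livers, against 1508, 1434 and 1355 RPM in LF+CR livers. On the wider list of the miR-17 family and its clusters, 12 of 13 members were tested, 4 were higher and none lower, with a median of 0.36, against 0.38 over all miRNAs (0.03 after rescaling).

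The miR-15 and miR-16 family, which represses cyclins and Bcl2, had 2 abundant members called higher. miR-16-5p was at 8899, 9534 and 7984 RPM in HF+CR livers, against 4990.1, 4241 and 6086 RPM in LF+CR livers, a log2 fold change of 0.80 (SE 0.18, adjusted p = 0.0191). miR-15a-5p was at 1537, 1540.1 and 1228 RPM in HF+CR livers, against 1002, 799.8 and 987 RPM in LF+CR livers (log2 fold change 0.63, SE 0.17, adjusted p = 0.0372). Neither overlapped between groups. The summed level of miR-15a-5p, miR-15b-5p, miR-16-5p and miR-195a-5p was 12460, 13146 and 15396 RPM in HF+CR livers and 7363, 6464 and 9372 RPM in LF+CR livers. miR-322-5p, which has the same seed and comes from a cluster on the X chromosome, lay lower, at 384, 453 and 520.4 RPM in HF+CR livers, against 711, 619 and 536 RPM in LF+CR livers, again without overlap. Its log2 fold change of -0.46 did not pass as deposited (adjusted p = 0.0651) and was -0.79 after rescaling (adjusted p = 0.00816). In this seed family of 5 tested, 2 were called higher and none lower, beside 9.12% and 1.42% of all miRNAs. Of the 5, 4 lay above 0 as deposited (78.6% of all), and the median was 0.79 (0.47 after rescaling). After rescaling neither miR-16-5p (adjusted p = 0.17) nor miR-15a-5p (adjusted p = 0.353) passed.

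Of the let-7 family, which restrains growth and insulin signalling, 3 of 14 tested members were higher and none lower, beside the 9.12% higher and 1.42% lower of all miRNAs tested. They were let-7b-5p, let-7c-5p and let-7d-5p, all among the 9 tested members with the let-7 seed (median 0.17, and -0.16 after rescaling). The rest of the 14 are 3p arms, of which let-7a-1-3p and let-7c-2-3p had identical values. let-7c-5p was at 21465, 16369.7 and 26941 RPM in HF+CR livers, against 12376, 16356 and 14749.8 RPM in LF+CR livers, with the lowest HF+CR library barely above the highest LF+CR library (log2 fold change 0.55, SE 0.17, adjusted p = 0.0497). let-7b-5p was at 10573, 6673 and 12127 RPM in HF+CR livers, against 4884, 7036 and 5976 RPM in LF+CR livers, with overlap (log2 fold change 0.69, SE 0.21, adjusted p = 0.0497). let-7d-5p was at 11036, 9979 and 10895 RPM in HF+CR livers, against 6692, 6283 and 9943 RPM in LF+CR livers (log2 fold change 0.51, SE 0.15, adjusted p = 0.0426). Over all 14 the median was 0.28 as deposited, below that of all miRNAs, and turned to -0.05 after rescaling, where none was called. The summed 5p arms with miR-98-5p stood at 117733, 102087 and 130761 RPM in HF+CR livers and 102406, 105528 and 105026 RPM in LF+CR livers, so the sums overlapped. let-7c-5p differs from let-7b-5p and let-7a-5p at 1 base each, and how reads matching several of them were counted is not given in the sources used here.

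let-7c-1 shares a locus with miR-99a, in an intron of Mir99ahg on chromosome 16, and the 3 tested miRNAs that this locus encodes were called higher (9.12% of all miRNAs were). let-7c-5p is also encoded on chromosome 15, so its level cannot be assigned to either locus. miR-99a-5p, which represses mTOR, was at 6432, 7163 and 7509 RPM in HF+CR livers, against 4694, 5349 and 4963 RPM in LF+CR livers (log2 fold change 0.49, SE 0.14, adjusted p = 0.0372), and miR-99a-3p at 79.3, 50.8 and 55.1 RPM in HF+CR livers, against 34.99, 34.04 and 38.1 RPM in LF+CR livers (log2 fold change 0.75, SE 0.20, adjusted p = 0.0372). Neither overlapped between groups. The locus had a median log2 fold change of 0.56 (0.23 after rescaling, with none called), and miR-99a-5p no longer passed in any of the 6 fits that left out a library.

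miR-27b-3p, a regulator of hepatic lipid genes, was at 5561, 5984 and 5772 RPM in HF+CR livers, against 3174, 3147 and 4671 RPM in LF+CR livers. The HF+CR libraries lay within a narrow band above every LF+CR library, for a log2 fold change of 0.68 (SE 0.14, adjusted p = 0.017). miR-27a-3p shares its seed and differs at 1 base; both summed to 5880, 6219 and 6362 RPM in HF+CR livers and 3381, 3333 and 4964 RPM in LF+CR livers. The miR-27b call was lost when LF+CR 1, LF+CR 2 or HF+CR 1 was left out (adjusted p up to 0.0904) and after rescaling (adjusted p = 0.255).

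The other 13 miRNAs called higher had log2 fold changes between 0.56 and 1.16. Many lie in genes. miR-335-5p, in an intron of the imprinted gene Mest, was at 146, 111 and 158 RPM in HF+CR livers, against 75.9, 57.2 and 78.2 RPM in LF+CR livers. miR-423-3p, in an intron of Nsrp1, was at 199, 140.3 and 184 RPM in HF+CR livers, against 73.1, 95.6 and 104 RPM in LF+CR livers and is the member of this group still called after rescaling. miR-151-5p was at 498, 572 and 569 RPM in HF+CR livers, against 285, 318 and 279.5 RPM in LF+CR livers, with 2 tight and separate groups. miR-425-3p, cut from the same cluster as miR-191, was at 22.4, 23.4 and 26.1 RPM in HF+CR livers, against 11.7, 12.1 and 16.5 RPM in LF+CR livers. All 4 tested miRNAs of that cluster lay above 0 as deposited (78.6% of all miRNAs did), with a median of 0.67 (0.36 after rescaling). miR-1968-5p, in an intron of Grtp1, was at 9.81, 13.4 and 6.68 RPM in HF+CR livers, against 5.04, 4.73 and 3.99 RPM in LF+CR livers, and miR-1198-5p, in an intron of Gripap1, at 36.99, 26.3 and 53.8 RPM in HF+CR livers, against 18.6, 22.1 and 21.8 RPM in LF+CR livers. miR-455-3p was at 1236, 1000.4 and 879 RPM in HF+CR livers, against 251, 638 and 734 RPM in LF+CR livers, where LF+CR 1 held far less than the other LF+CR libraries. The groups also separated for miR-22-5p, miR-28a-5p and miR-186-5p, the last in an intron of Zranb2. They overlapped for miR-574-5p, miR-328-3p and miR-148b-3p: miR-574-5p, for example, was at 18.2, 12.7 and 25.7 RPM in HF+CR livers, against 4.91, 6.46 and 13.3 RPM in LF+CR livers.

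Of the 5 miRNAs lower in HF+CR livers, miR-802-3p fell the most. miR-802 is raised in the livers of obese mice, where it impairs glucose tolerance. miR-802-3p was at 97.5, 115 and 157 RPM in HF+CR livers, against 308, 299.7 and 267 RPM in LF+CR livers, far apart, with a log2 fold change of -1.26 (SE 0.29, adjusted p = 0.0191). The more abundant arm, miR-802-5p, was at 1770.1, 2504 and 2357 RPM in HF+CR livers, against 4282, 3289 and 3607 RPM in LF+CR livers and did not overlap either, but its log2 fold change of -0.76 missed the threshold as deposited (adjusted p = 0.0677) and passed after rescaling (log2 fold change -1.09, adjusted p = 0.0366). Its precursor lies at chr16:93369720-93369816 (GRCm38.p6, plus strand), in no annotated gene other than its own. miR-345-3p, from an intron of Slc25a47, which encodes a mitochondrial carrier, was at 9.25, 5.64 and 6.68 RPM in HF+CR livers, against 18.4, 18.1 and 14.99 RPM in LF+CR livers (log2 fold change -1.17, SE 0.23, adjusted p = 0.00999). These values rest on 33, 32 and 20 reads in HF+CR livers and 146, 115 and 79 reads in LF+CR livers. The opposite arm, miR-345-5p, was at 119.9, 80.4 and 65.2 RPM in HF+CR livers, against 99.2, 65.4 and 95.6 RPM in LF+CR livers, with a log2 fold change of 0.01 as deposited and -0.32 after rescaling, passing in neither.

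The miR-29 and miR-101 families gave the abundant miRNAs that were lower. miR-29 represses collagens and other matrix genes and, in liver, genes of insulin signalling. miR-29c-3p was at 29412, 31307 and 20985 RPM in HF+CR livers, against 43175, 44799 and 36012 RPM in LF+CR livers, without overlap, a log2 fold change of -0.62 (SE 0.15, adjusted p = 0.0263). miR-29a-3p, which differs from miR-29c-3p at 1 of 22 bases, was at 56763, 58652 and 73375 RPM in HF+CR livers, against 83538, 89703 and 70139 RPM in LF+CR livers and did not pass as deposited (log2 fold change -0.37, adjusted p = 0.0712), but did after rescaling (log2 fold change -0.70, adjusted p = 0.00816). miR-29b-3p was at 20886, 15494 and 15001 RPM in HF+CR livers, against 22421, 17167 and 17829 RPM in LF+CR livers (log2 fold change -0.17, adjusted p = 0.51). Summed, the 3 members stood at 107061, 105453 and 109361 RPM in HF+CR livers and 149134, 151670 and 123979 RPM in LF+CR livers, without overlap. miR-29c-5p, from the other arm, was at 37.5, 52.3 and 40.4 RPM in HF+CR livers, against 34.7, 38.8 and 55.8 RPM in LF+CR livers, a log2 fold change of 0.03 (-0.30 after rescaling), passing in neither.

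miR-101a-3p, known to repress the chromatin enzyme Ezh2, was at 7040.4, 11699 and 8911 RPM in HF+CR livers, against 20578, 17592 and 12785 RPM in LF+CR livers (log2 fold change -0.89, SE 0.20, adjusted p = 0.0191). miR-101c, whose sequence lies inside that of miR-101a-3p, was at 5.88, 12.3 and 10.4 RPM in HF+CR livers, against 30.7, 28.7 and 13.5 RPM in LF+CR livers (log2 fold change -1.24, SE 0.35, adjusted p = 0.0417). Reads of miR-101a-3p that are short at their ends would match miR-101c as well, so the 2 calls may not be separate measurements. miR-101b-3p was the most abundant of the 3 and was at 23479, 33891 and 18319 RPM in HF+CR livers, against 27187, 28313 and 21470.4 RPM in LF+CR livers, with overlap and a log2 fold change of -0.06 (adjusted p = 0.854). The summed family stood at 30525, 45603 and 27240 RPM in HF+CR livers and 47796, 45933 and 34269 RPM in LF+CR livers, and overlapped.

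Arms of a hairpin tended to move the same way. Both arms were tested for 100 hairpins, and in 80 their log2 fold changes had the same sign as deposited; in 66 both lay on the same side of the median of all miRNAs. As deposited 78.6% of all miRNAs lay above 0, so arms of unrelated hairpins would often share a sign too. Of 23 hairpins with a call, 21 had arms of the same sign. Those that differed were miR-29c and miR-345, each with a 3p arm called lower. The arms of miR-101a shared a sign, but miR-101a-5p was at -0.07, against -0.89 for miR-101a-3p, and its groups overlapped. Both arms were called for miR-17, miR-1948, miR-214, miR-671 and miR-99a. Base composition differed little for those called higher: their median GC content was 47.7% over the 28 with a sequence, against 36.8% for the 5 called lower and 47.6% for all miRNAs with a sequence. Across these miRNAs the Spearman correlation of log2 fold change with GC content was 0.16, a description with no test. The arms of a hairpin are not independent, being cut from 1 precursor. Partners that did not pass included miR-22-3p at 12782, 13361 and 10204 RPM in HF+CR livers, against 8117, 8791 and 7583 RPM in LF+CR livers, without overlap (log2 fold change 0.56, adjusted p = 0.0651), miR-423-5p (log2 fold change 0.85, adjusted p = 0.0559) and miR-27b-5p (log2 fold change 0.61, adjusted p = 0.107).

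Lists of miRNAs known from metabolism are given beside the 9.12% called higher and 1.42% called lower among all miRNAs tested (1.71% and 5.41% after rescaling). As deposited, 78.6% of all miRNAs tested lay above 0. On the lipid and sterol list, 21 of 23 members were tested, 1 was higher (miR-27b-3p) and 1 lower (miR-101a-3p), with a median of 0.28 as deposited and -0.04 after rescaling, where none was higher and 1 lower. miR-33-5p, which lies in a sterol regulator gene and represses cholesterol export, was at 19.1, 23.8 and 15.7 RPM in HF+CR livers, against 16.99, 10.1 and 11.6 RPM in LF+CR livers (log2 fold change 0.58, adjusted p = 0.149). miR-34a-5p, whose gene is activated by p53, was at 1176, 596 and 2939.7 RPM in HF+CR livers, against 387, 469.9 and 814 RPM in LF+CR livers (log2 fold change 1.26, adjusted p = 0.107), with the highest value in HF+CR 3. miR-148a-3p, which represses the LDL receptor, was at 26814, 20543 and 23277 RPM in HF+CR livers, against 15001, 16068 and 28788 RPM in LF+CR livers, a log2 fold change of 0.30 as deposited and -0.03 after rescaling, passing in neither. On the insulin and glucose list 19 of 20 were tested, none was higher and 2 were lower (miR-802-3p and miR-29c-3p), with a median of 0.11 (-0.22 after rescaling, where 5 were lower and none higher). On the fibrosis list 13 of 13 were tested, 2 were higher (the arms of miR-214) and 1 lower (miR-29c-3p), with a median of 0.17 (-0.16 after rescaling, where 1 was higher and 3 lower). On the mitochondria and energy list 8 of 9 were tested and 3 were higher, namely both arms of miR-1948 and miR-22-5p (2 higher and 1 lower after rescaling); the list was drawn up with miR-1948 named in it. None was called on the miR-30 list (11 tested, median 0.08; 2 lower after rescaling, among them miR-30e-5p at -0.71), the miR-34 list (3 tested, median 0.87), the hypoxia list (8 tested, median 0.60), the Sfmbt2 intron cluster list (7 tested with only 2 distinct sets of values, all above 0 as deposited, median 0.98) or the list of the cluster that holds miR-322 (9 tested, median 0.23; 1 lower after rescaling).

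Single libraries carried high levels of miRNAs of other cells. None of the cell type lists had a member at 0 in all 6 libraries. Over all miRNAs tested, 9.12% were called higher and 1.42% lower, and 78.6% lay above 0 as deposited. The leukocyte and Kupffer cell list, none of whose 8 tested members passed, had a median of 0.94 (0.62 after rescaling) and summed to 1729, 1119 and 3584 RPM in HF+CR livers and 1045, 1144 and 1227 RPM in LF+CR livers. The myeloid miR-223-3p was highest in the same library, at 669, 449 and 1817 RPM in HF+CR livers, against 282, 326 and 454 RPM in LF+CR livers (log2 fold change 1.23, adjusted p = 0.107). The epithelial and bile duct list summed to 2644, 3398 and 10935 RPM in HF+CR livers and 5103, 3618 and 3931 RPM in LF+CR livers, so HF+CR 3 again stood apart, and none of its 10 tested members passed as deposited. Its members did not lie on the same side of 0: 6 lay above it, while miR-182-5p (log2 fold change -1.39, adjusted p = 0.0852), miR-183-5p (log2 fold change -1.19, adjusted p = 0.149) and miR-96-5p (log2 fold change -0.98, adjusted p = 0.173) lay below. After rescaling miR-182-5p was called lower (log2 fold change -1.72, adjusted p = 0.0322). The hepatocyte list, with 9 tested and 1 lower (miR-101a-3p), ran from 441842 RPM in HF+CR 3 to 514490 RPM in HF+CR 2, and from 487413 to 508694 RPM in LF+CR livers. This sum counts miR-21a-5p, which was highest in HF+CR 3. That miRNA was at 76174, 63784 and 111905 RPM in HF+CR livers, against 88896, 69708 and 62190 RPM in LF+CR livers. Pancreatic miRNAs, of which 2 were tested and none passed, reached 138 RPM in HF+CR 1 and 348 RPM in LF+CR 1, against at most 13.3 RPM in the other 4 libraries. Neuronal miRNAs, of which 5 were tested and none passed, reached 368 RPM in HF+CR 2 and lay between 94.8 and 124 RPM in the other 5. Entries that resemble fragments of other RNAs summed to 500, 209 and 355 RPM in HF+CR livers and 123, 111 and 132 RPM in LF+CR livers, without overlap; their 6 tested members all lay above 0 as deposited (4 after rescaling) and none passed, with miR-690 the highest at 299.6, 111 and 134 RPM in HF+CR livers, against 33.7, 29.6 and 33.97 RPM in LF+CR livers (log2 fold change 2.31, adjusted p = 0.12). The lists name leukocyte miR-142, endothelial miR-126 and erythroid miR-486 with an added letter that the files lack, so lists and sums omit them. Their 5p and 3p log2 fold changes were 0.99 and 1.12 (miR-142), 0.11 and 0.33 (miR-126), and 0.09 and -0.06 (miR-486). None of these arms was called. The endothelial miRNAs counted (4 tested, 4 above 0 as deposited) and muscle miRNAs (2 tested, both below 0) had no call. Nor had the erythroid ones counted (3 tested, all below 0), all from the locus of miR-144 and miR-451a. The part of these levels in the calls was not tested beyond the fits that leave libraries out.

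Most calls rested on which libraries were kept. The 37 calls became 3 with LF+CR 1 left out, 3 with LF+CR 2 left out and 4 with HF+CR 1 left out. They became 30, 36 and 51 when HF+CR 3, LF+CR 3 and HF+CR 2 were each left out. miR-671-5p, miR-1948-3p and miR-1948-5p passed in all 6 of these fits and under every other setting that could test them, with adjusted p-values up to 0.0428, 0.0311 and 0.0496. Of the other 34, 10 passed in 3 to 5 of the 6 fits, 22 in 1 or 2, and miR-99a-5p and miR-17-5p in none. Without HF+CR 3, the library rich in leukocyte and epithelial miRNAs, the balance was 17 higher and 13 lower. Without both first CR libraries, which were rich in pancreatic miRNAs, 4 were called. Fitting only the 6 compared libraries also left 4. The median spread within a group, as a standard deviation of log2(RPM + 1), was 0.42 in HF+CR livers and 0.27 in LF+CR livers, and HF+CR was the most variable of the 6 groups. Depth was 3.95 ± 1.37 megareads in HF+CR libraries and 6.33 ± 1.30 megareads in LF+CR libraries (SD, n = 3 each), as implied by the RPM steps.

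**Figure D4:**
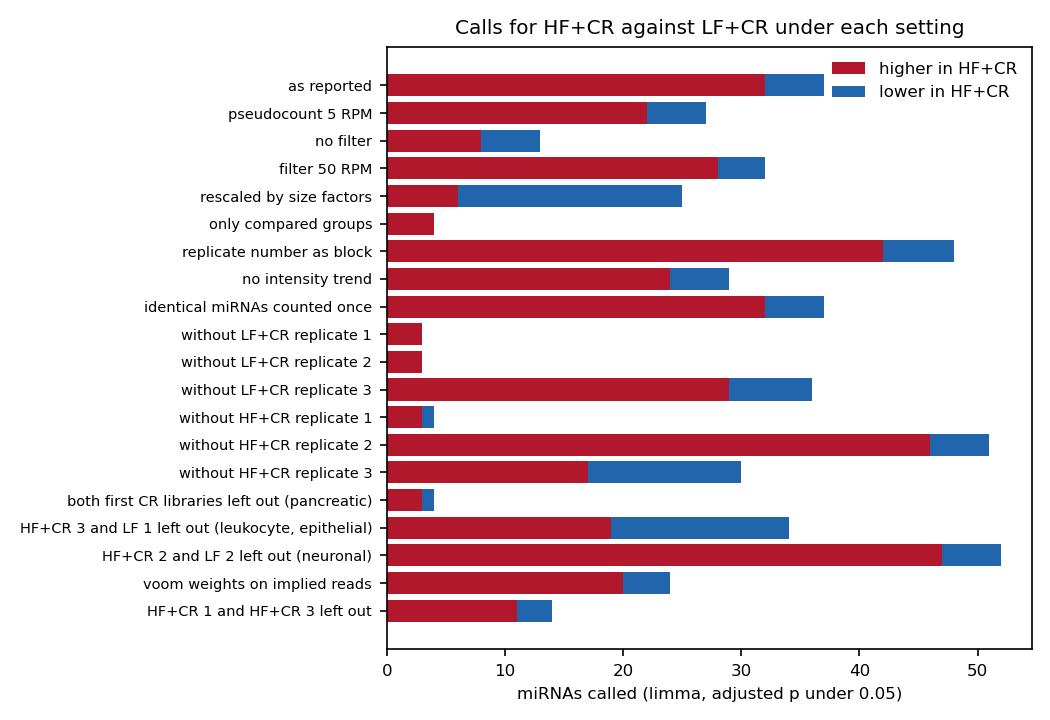
Number of miRNAs called for HF+CR against LF+CR (horizontal axis) as reported and under each alternative, split into higher (red) and lower (blue). The bars fall to 3 or 4 when LF+CR 1, LF+CR 2 or HF+CR 1 is left out, and lower calls outnumber higher ones only after rescaling.

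The same diet contrast was set beside that in mice without intervention and in exercised mice, which use other libraries. There, 1 miRNA was called for HF against LF (0.285%, miR-33-5p) and 29 for HF+Ex against LF+Ex (8.26%), 21 higher (5.98%) and 8 lower (2.28%). Over all miRNAs tested, the log2 fold changes under CR had a Spearman correlation of 0.25 with those without intervention and 0.23 with those under Ex, a description across miRNAs with no test. The 37 called under CR and the 29 called under Ex shared 8, or 21.6% and 27.6% of each list; 4 were higher in both and 4 were higher under CR and lower under Ex. None of the 37 was called without intervention. The level of the LF+CR group was the lowest of the 6 group means for 28 of the 32 miRNAs called higher. It was the lowest for 162 of all miRNAs tested, which are the 758 listed less the 407 left out. The HF+CR mean was the highest of the 6 for 15 of the 32, and for 77 of all miRNAs tested. For all 5 called lower, HF+CR had the lowest and LF+CR the highest of the 6 means. Over all miRNAs tested, HF+CR had the lowest mean for 33 and LF+CR the highest for 31. The calls that these positions describe chose the 37, so they are given without a test.

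The difference between diet effects was tested directly. The diet effect under CR differed from that without intervention for 3 miRNAs (0.855%), all higher: miR-1948-3p by 2.67 (SE 0.35, adjusted p = 4.82e-04), miR-1948-5p by 2.54 (adjusted p = 0.0124) and miR-671-5p by 1.02 (adjusted p = 0.0306). Unadjusted, 48 had p under 0.05. After rescaling 1 was called, miR-1948-3p (adjusted p = 0.0289), which also passed in all 12 fits that left out a library. The miR-1948-5p difference passed in 11 of the 12 and was lost without HF 3 (adjusted p = 0.0506). Rescaling, fitting only the compared groups and leaving out both first CR libraries also lost the miR-1948-5p difference (limma, adjusted p up to 0.129). The miR-671-5p difference passed in only 5 of the 12 (adjusted p up to 0.109), and was lost with the replicate block and with only the compared groups, unlike its difference between HF+CR and LF+CR livers. miR-1948-3p was at 45.1, 33.8 and 34.99 RPM in HF livers and 44.2, 79.8 and 48.7 RPM in LF livers without intervention, and at 42.3, 47.9 and 39.7 RPM in HF+Ex livers and 102, 98.3 and 71.2 RPM in LF+Ex livers. It was thus lower with the HF diet under Ex, where the groups did not overlap, and higher with it under CR. miR-671-5p was at 118, 146 and 129.9 RPM in HF livers and 97.2, 104 and 108 RPM in LF livers, so that the LF+CR libraries held the lowest values of it in the series.

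**Figure D5:**
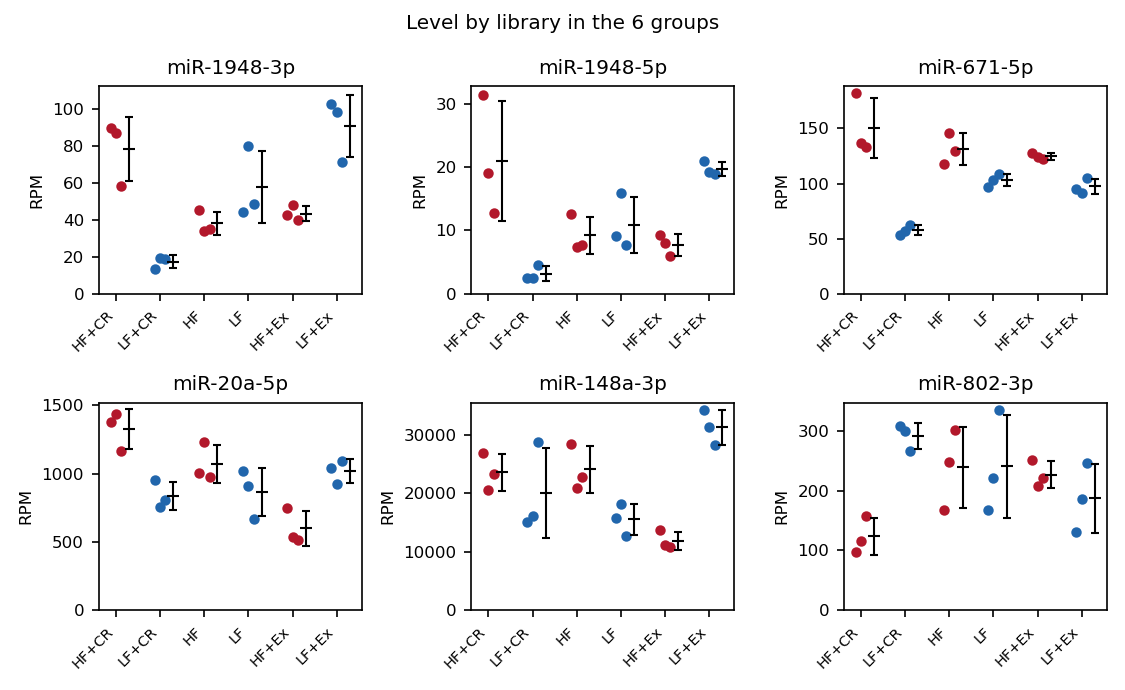
RPM of 6 miRNAs in each library of the 6 groups, with HF diet groups in red left of their LF diet partners in blue, and the mean ± SD (n = 3) in black. miR-1948-3p and miR-1948-5p are higher in HF+CR than in LF+CR livers and lower in HF+Ex than in LF+Ex livers, and LF+CR has the lowest miR-671-5p.

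Against exercise, the diet effect under CR differed for 10 miRNAs (2.85%), 8 higher (2.28%) and 2 lower (0.57%), with 64 at an unadjusted p under 0.05. Both arms of miR-1948 and miR-671-5p were again among them, with differences of 3.15, 3.61 and 1.002 on the log2 scale. For miR-20a-5p the difference was 1.44 (SE 0.27, adjusted p = 0.00492): it was higher with the HF diet under CR and lower under Ex, at 748, 534 and 515 RPM in HF+Ex livers against 1039, 921 and 1094 RPM in LF+Ex livers. miR-17-5p, with the same seed, differed by 1.42 (adjusted p = 0.00246). miR-148a-3p differed by 1.70 (adjusted p = 0.004), with 13651, 11113 and 10722 RPM in HF+Ex livers and 34248, 31348 and 28262 RPM in LF+Ex livers. miR-592-5p differed by 3.14 and miR-1968-5p by 1.32 (adjusted p = 0.0172 and 0.0251). The 2 with a lower effect under CR were miR-802-3p (difference -1.58, adjusted p = 0.0479) and miR-676-3p (difference -1.54, adjusted p = 0.0172). After rescaling 11 were called (3.13%). The miR-671-5p and miR-1968-5p differences no longer passed there (adjusted p = 0.0635 and 0.0857). When each of 12 libraries was left out in turn, the miR-802-3p difference passed in only 3 fits (adjusted p up to 0.132), and it was also lost with no filter and with no intensity trend. The miR-1968-5p difference passed in 5 of the 12 fits, miR-592-5p in 7 and miR-676-3p in 8, while the other 6 passed in all 12.

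The 407 miRNAs that were listed but not tested held little of the libraries: the tested ones took 99.958% to 99.983% of the listed RPM in the 6 libraries, and no untested value exceeded 40.2 RPM. Of the 407, 109 were at 0 in all 6 libraries, 24 had all HF+CR values above all LF+CR values and 10 the reverse. Among the tested miRNAs these counts were 84 (23.9%) and 13 (3.7%). Both shares were smaller among the untested ones. Only miRNAs at or above 5 RPM in 3 libraries of the series were eligible for a call, so the counts above say nothing of rarer ones.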

How the data were processed

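Small RNA from frozen liver was extracted with Trizol and enriched for small RNA, per the labels' protocols, and sequenced in 18 libraries. The authors deposited RPM values for 758 mature miRNAs, per the file headers, and the submitters' processing notes name genome build mm10. Which aligner, counter and miRNA release were used, and how reads matching several miRNAs were handled, is not given in the sources used here. All deposited RPM values were whole multiples (tolerance 0.001 reads) of a step of 1 read, where the smallest listed value is 2 steps, so that value was read as 2 reads; a listed 0 can be 0 reads or 1 read. PCR reads without molecular identifiers are not independent molecules.

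Sample titles gave each library its group and number. Values were transformed to log2(RPM + 1), which understates changes of low miRNAs, and fitted with limma 3.58.1 in R 4.3.3 over all 18 libraries, 1 coefficient per group, with an intensity trend in eBayes, two-sided, adjusted by Benjamini-Hochberg over all miRNAs tested. The exact permutation test of 3 against 3 libraries cannot go below 0.1 and was not used. The fit was run on simulated data with independent noise and, for each miRNA, the same spread in all groups. HF+CR was the most variable group in the real data, so that run says nothing of unequal spread. It also says nothing of shifts that many miRNAs of a library share. The rule for naming miRNAs took the called miRNAs with the largest changes, at most 12 in each direction, the 4 most abundant tested members of each list, the 10 most abundant miRNAs, up to 6 called differences between diet effects by smallest p, and opposite arms; the remaining called miRNAs and differences were added, and the uncalled ones described were selected, with their values known. The miRNAs, the 22 lists and the alternatives were chosen with earlier results of these data known. Precursor locations came from RefSeq GRCm38.p6 and host genes from GENCODE M21, both on the build that mm10 names. Replicate numbers were not used to pair the libraries in the main fit, and whether they mark a pairing was not tested. Figures were drawn with matplotlib 3.10.9 in Python 3.11.15.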

Additional observations from a re-analysis of the deposited data

Results flagged for a closer look

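The diet effect under CR differed from that without intervention, by a test of the difference itself (limma), for miR-1948-3p (2.67), miR-1948-5p (2.54) and miR-671-5p (1.02), all on the log2 scale. It differed from the diet effect under Ex for miR-1948-3p (3.15), miR-1948-5p (3.61), miR-592-5p (3.14), miR-148a-3p (1.70), miR-20a-5p (1.44), miR-17-5p (1.42), miR-1968-5p (1.32), miR-671-5p (1.002), miR-676-3p (-1.54) and miR-802-3p (-1.58). The miR-802-3p difference passed in 3 of 12 fits that left out a library, and that of miR-671-5p from no intervention in 5 of 12. Of the miRNAs above, miR-148a-3p, miR-592-5p and miR-676-3p were not called within HF+CR against LF+CR.

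Among the other miRNAs named, 2 had groups that separated in opposite directions; the tests of these differences missed the threshold. miR-92a-3p was above in all HF+CR libraries and below in all HF libraries relative to their LF partners, a difference of 1.32 that missed the threshold (adjusted p = 0.0794). miR-322-5p was below in all HF+CR libraries and above in all HF+Ex libraries, a difference of -0.81 (adjusted p = 0.0554).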

How the results depend on the processing

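For HF+CR against LF+CR (37 called), the count was 13 with no filter, 4 with only the compared groups in the fit, 4 without both first CR libraries, 24 with voom weights on implied reads (20 higher, 4 lower) and 14 without HF+CR 1 and HF+CR 3; it ranged from 3 to 51 when a library was left out. It was 27 with a pseudocount of 5 RPM, 32 with a filter of 50 RPM, 25 after rescaling, 29 without the intensity trend, 37 with identical miRNAs counted once, 34 without HF+CR 3 and LF 1 and 52 without HF+CR 2 and LF 2. For the difference between the diet effects with CR and without intervention (3 called), it was 1 after rescaling, with only the compared groups and without both first CR libraries, 6 without HF+CR 3 and LF 1 and 17 without HF+CR 2 and LF 2, and 1 to 9 when a library was left out. It was 1 without HF 3, 5 without LF+CR 3 and 9 without HF+CR 2. For CR against Ex (10 called), it was 6 without both first CR libraries, 39 without HF+CR 3 and LF 1, 15 with voom weights, and 6 to 25 when a library was left out (25 without HF+CR 3, 18 without LF+CR 3, 16 without HF+Ex 1, 6 without LF+Ex 1 or LF+Ex 2). The voom weights and the fit without HF+CR 1 and HF+CR 3 were chosen after seeing the data. With 1 HF+CR library left, that fit assumes it varies like the other groups. A planned edgeR test was not run: the smallest listed value stands for 2 reads, so single reads are missing from the values and they are not complete counts.

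No called miRNA changed direction under any setting that could test it. Over all named miRNAs and settings, the HF+CR against LF+CR value kept its direction and its side of the threshold in 837 cases, lost the threshold in 349, gained it in 38 and changed direction in 30, all of uncalled miRNAs. After rescaling, miR-21a-5p was at -0.16, miR-345-5p at -0.32, miR-29c-5p at -0.30 and miR-148a-3p at -0.034. Without HF+CR 1 and HF+CR 3, miR-122-5p was at 0.062, miR-21a-5p at -0.19, miR-194-5p at 0.26, miR-192-5p at 0.10, miR-345-5p at -0.085, miR-101b-3p at 0.41, miR-127-3p at -0.27 and miR-136-5p at -0.36. Without HF+CR 3 and LF 1, miR-122-5p was at 0.027, miR-21a-5p at -0.062, miR-194-5p at 0.17 and miR-101b-3p at 0.15. Without both first CR libraries, miR-345-5p was at -0.13, miR-101b-3p at 0.015 and miR-29c-5p at -0.015. Without HF+CR 2 and LF 2, miR-29c-5p was at -0.11. Leave-one-out values spanned -0.16 to 0.027 for miR-122-5p, -0.062 to 0.34 for miR-21a-5p, -0.22 to 0.17 for miR-194-5p, -0.23 to 0.20 for miR-345-5p, -0.30 to 0.15 for miR-101b-3p and -0.11 to 0.22 for miR-29c-5p. The cause was not tested.

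The replicate number as a block gave 48 calls for HF+CR against LF+CR, 36 of them among the 37, and 2 and 10 for the differences. Same-numbered HF+CR and LF+CR libraries deviated together with correlations of 0.25, 0.23 and -0.07 for numbers 1, 2 and 3. Of the 6 libraries, 4 correlated best with their own number. Whether the numbers mark a pairing or a shared batch was not tested, and the main fit used no block. Depth limits rare miRNAs: miR-376b-3p was called on 0 to 54 reads a library.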

Other observations

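A block of X-linked miRNAs on chromosome X known from testis, the neighbours of miR-741-3p, stood out in 1 library and was noticed after the values were seen. The block lists 28 miRNAs, of which 5 were tested. Summed, they held 30, 437 and 18.7 RPM in HF+CR livers and 9.82, 18.9 and 12.1 RPM in LF+CR livers. The other 12 libraries held 6.1 to 108 RPM. miR-741-3p alone was at 4.48, 66.4 and 5.68 RPM in HF+CR livers and 0.881, 2.05 and 2.28 RPM in LF+CR livers, a log2 fold change of 2.35 that did not pass (SE 0.82, adjusted p = 0.0765). HF+CR 2 was also the library with the most neuronal miRNAs.

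The 5p arm made up 25.9%, 18% and 17.9% of the summed miR-1948 arms in HF+CR livers and 15.4%, 11.5% and 19.4% in LF+CR livers, so the balance of arms overlapped while the sum did not (121, 106 and 70.9 RPM, against 15.5, 21.9 and 23.5 RPM).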
